A study of Homo sapiens with 24 samples.

Results

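The difference of the isoginkgetin response by p53 status was taken gene by gene over the human colorectal carcinoma line HCT116, labelled HCT116, and its p53-null subline, labelled HCT116p53-/-. For each gene the response was the log2 level with isoginkgetin minus the log2 level with DMSO, and the response of HCT116 was subtracted from that of the p53-null line. The members were the 18613 genes with exactly 1 symbol and at least 3 exon probe sets, out of 22036 symbols with an exon probe set. Each was given as the mean over its exon probe sets, with a median of 16 probe sets per gene.

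Cells received 30 µM isoginkgetin for 8 h, DMSO as the vehicle for the same time, or nothing. All came from cultures in the same serum-containing medium. The p53-null line is a single published subline of HCT116, and the deletion is the only genetic difference named in the labels. Each line was treated in 2 independent experiments, so that each of the 4 groups compared held 2 arrays, and the difference used 8 of 12 arrays. The untreated, DMSO and isoginkgetin arrays that share a line and a replicate number form a set, which gave 4 sets. Precision is set by these 8 arrays, since an array value carries no depth. The samples were bulk cultures, in which fewer cells expressing a gene and less RNA per cell cannot be told apart.

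p53 is a transcription factor that is held at a low level by the ubiquitin ligase MDM2 and, when stress stabilises it, activates genes for cell cycle arrest, DNA repair and death. Isoginkgetin is a biflavonoid of ginkgo known as an inhibitor of pre-mRNA splicing. ATF4, the central transcription factor of the integrated stress response, drives genes for amino acid uptake and synthesis when translation initiation is dampened.

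The arrays labelled HCT116 replicate 1 stood apart from the other 3 sets. With DMSO, 9 of 15 epithelial marker genes were lower there by at least 2 log2 than in every other set. Their mean level was 4.55 in that set and 8.58, 8.35 and 8.58 in HCT116 replicate 2 and p53-null replicates 1 and 2. EPCAM, an epithelial adhesion molecule, was at 4.61 there against 11.93, 12.3 and 12.14. Of 12 fibroblast markers, 6 were higher there by at least 2 log2, with a mean of 6.74 against 3.55, 3.72 and 3.8. Leukocyte and endothelial markers had means of at most 4.0 in every set. The 3 arrays of that set shared this pattern, which goes against their label: HCT116 is an epithelial line, and these arrays lacked its defining markers. They are called HCT116 replicate 1 below only because the labels do so, and every difference over all 4 sets includes them. The part of this set in those differences was not tested. Counts of calls, and medians of gene groups that were large or turned, are therefore also given against HCT116 replicate 2 alone.

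The deposited values also repeated within sets. Of 381400 exon probe sets, 26.4% had exactly the same value with DMSO and isoginkgetin in HCT116 replicate 1, 26.4% in HCT116 replicate 2, 32.2% in p53-null replicate 1 and 30.2% in p53-null replicate 2. Between sets at most 0.00315% were equal. A repeated value gives that probe set a response of 0, which draws the gene mean and the spread between sets towards 0. Junction probe sets repeated less, at 2.62% to 4.51%, and serve below as a second readout of the same arrays. They read joined exons, and isoginkgetin is known as a splicing inhibitor. A junction response can therefore hold a change of splicing as well as of level, and these were not separated.

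The label of the p53-null line was first set against genes known to be activated by p53. Both p53-null sets lay below both HCT116 sets in DMSO for 21 of 31 such genes (67.7%), where this held for 24.3% of all 18613 genes. CDKN1A, the inhibitor of cyclin-dependent kinases, had DMSO levels of 7.91 and 8.34 in the HCT116 sets and of 6.97 and 7.53 in the p53-null sets. MDM2 had 11.53 and 11.96 against 10.74 and 10.88. The antiproliferative factor BTG2 had 8.85 and 8.05 against 5.78 and 6.55. TP53INP1, a p53 co-factor in stress, had 7.13 and 7.15 against 4.72 and 5.17. All 4 genes were lower in both p53-null sets, the set that stands apart included.

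Across all genes the response to isoginkgetin was wider in both sets labelled HCT116 than in the p53-null sets. The SD of the response over genes was 0.167 and 0.212 in HCT116 replicates 1 and 2, and 0.143 and 0.111 in the p53-null sets. A response of at least 0.5 log2 was seen in 281 and 614 genes in HCT116 and in 148 and 91 genes in the p53-null line. DMSO against untreated cells gave 7, 20, 23 and 8 such genes in the same order of sets. Across genes, the responses of the p53-null sets correlated at 0.60 with each other and those of the HCT116 sets at 0.29, and HCT116 replicate 2 correlated at 0.37 and 0.34 with the p53-null sets. These coefficients describe 18613 genes that share arrays and are not independent replicates.

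**Figure D1:**
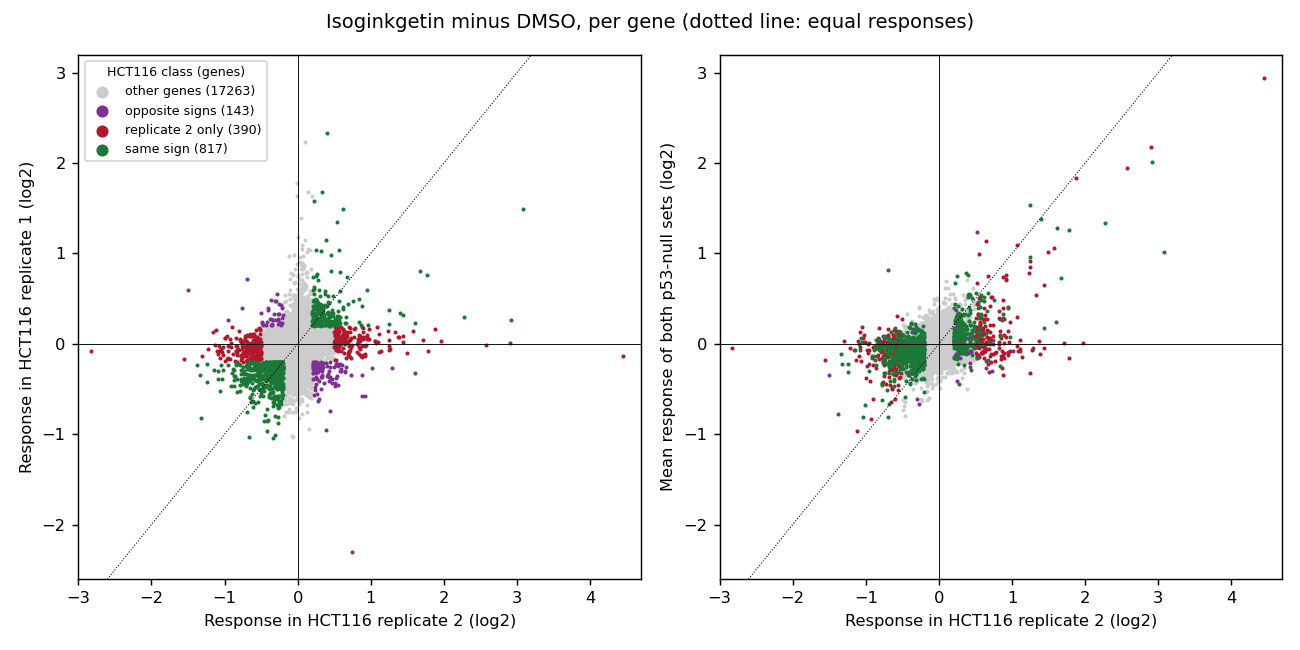
Isoginkgetin minus DMSO (log2) per gene. Left, HCT116 replicate 1 (vertical) against replicate 2 (horizontal). Right, the mean of both p53-null sets (vertical) against HCT116 replicate 2 (horizontal). Colours mark the 817 genes with the same sign in both HCT116 sets, the 390 that moved only in replicate 2 and the 143 of opposite signs, and the dotted line marks equal responses. The correlation across genes was 0.29 on the left.

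With all 4 sets, no gene had a difference that passed the test (limma on within-set responses, Benjamini-Hochberg adjusted p under 0.05, 0 of 18613 genes or 0.0%). The smallest adjusted p was 0.54. At an unadjusted p under 0.05 there were 1676 genes (9.0%), of which 1124 were higher and 552 lower in the p53-null line. On simulated responses with the same number of sets, the fit recovered 77 of 100 genes with a true difference of 1 log2 and 3 of 100 with 0.5 log2. Differences of the smaller size were thus mostly missed in the simulation. The simulation gave all sets of a gene the same spread. In the data the SD of the response over genes ran from 0.111 to 0.212 between sets, so these shares need not hold for them. The same test of DMSO against untreated cells gave 0 genes, and 1195 (6.42%) at an unadjusted p under 0.05.

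Sizes were then described without a test. Both p53-null responses lay above both HCT116 responses in 4002 genes (21.5%) and below them in 4160 (22.3%). Such a separation together with a mean difference of at least 0.5 log2 was found in 154 genes (0.827%), 92 of them higher (0.494%) and 62 lower (0.333%) in the p53-null line. The vehicle comparison had 7 (0.0376%), and 7002 genes (37.6%) were separated in it at any size. LARP4B and WDCP, at 0.50, lay just inside this limit, and NOP9 at 0.50 and TCEAL9 at -0.50 just outside it.

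Genes were separated by how the HCT116 sets behaved. In 817 genes (4.39%) both HCT116 responses had the same sign and were each at least 0.2 log2 in size. In 390 genes (2.1%) replicate 2 moved by at least 0.5 log2 and replicate 1 by less than 0.2. In 143 the HCT116 sets moved in opposite directions, and the other 17263 had smaller responses. Of the 154 separated genes, 77 had the same sign in both HCT116 sets, 39 moved only in replicate 2, 4 were of opposite signs and 34 had smaller responses. Because these classes use the HCT116 values of the same contrast, their counts are descriptions.

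Of the 77 genes with matching HCT116 signs, 58 were higher and 19 lower in the p53-null line. The higher ones mostly had negative responses in HCT116 and responses near 0 in the p53-null line. HK2, the hexokinase that starts glycolysis in many tumour cells, went from 8.21 to 7.57 and from 8.69 to 8.16 between DMSO and isoginkgetin in the HCT116 sets, and from 7.80 to 8.00 and from 8.26 to 8.35 in the p53-null sets. The direction was opposite in the lines and alike within each. Its difference was 0.73 ± 0.07 (limma standard error, SE, n = 2 sets per line), a factor of 1.66, with a limma adjusted p of 0.54.

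SLC25A32, a mitochondrial carrier of folate and flavin nucleotides, went from 9.75 to 9.23 and from 10.58 to 9.52 in HCT116. In the p53-null sets it went from 9.91 to 10.08 and from 10.40 to 10.36, so that the lines did not overlap. The difference was 0.86 ± 0.20 (SE, n = 2), the largest among the genes of this class that were higher. TEAD4, a DNA-binding partner of the Hippo pathway co-activator YAP, had responses of -0.83 and -1.32 in HCT116 and of -0.37 and -0.08 in the p53-null sets. PMM2, a phosphomannomutase that supplies N-glycosylation, had -1.03 and -0.67 against -0.05 and -0.16. The kinase SIK1 had -0.57 and -0.39 against 0.24 and 0.12. For SNX12, SGTA, TRAF7 and TXN2 the response of replicate 2 was between -1.34 and -1.05 and that of replicate 1 between -0.35 and -0.23 (differences 0.65 to 0.73), so that replicate 2 carried most of the difference.

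Junction probe sets gave HCT116 responses of -0.64 and -0.88 for HK2, of -0.97 and -1.71 for TEAD4 and of -0.68 and -0.50 for PMM2. In the p53-null sets they gave 0.24 and -0.08, -0.51 and -0.14, and 0.31 and 0.03 for the same genes. All 3 kept both p53-null sets above both HCT116 sets. SLC25A32 did not, with -0.15 and -0.60 in HCT116 against -0.19 and -0.12.

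Genes with positive HCT116 responses and lower p53-null ones were led by the metallothionein MT1F. It went from 10.66 to 12.15 and from 10.43 to 13.52 in HCT116, and from 10.35 to 11.22 and from 10.59 to 11.76 in the p53-null sets. The level was higher with isoginkgetin in all 4 sets. The difference was -1.27 ± 0.53 (SE, n = 2), and HCT116 replicate 2 had the highest response of the 4 sets. Junction probe sets gave 0.75 and 1.77 in HCT116 and 1.02 and 0.88 in the p53-null line, where the lines overlapped. EMP3, an epithelial membrane protein, had responses of 0.33 and 0.35 in HCT116 and of -0.21 and -0.26 in the p53-null line, a difference of -0.57 ± 0.06 (SE, n = 2). The cytokine CTF1 had 0.24 and 0.83 against -0.19 and -0.31. HOXC13 had 0.49 and 0.84 against 0.10 and 0.06, and HOXB5 0.50 and 0.25 against -0.14 and -0.21, both of them developmental transcription factors. DMSO alone against untreated cells gave 0.57 and -0.22 for HOXC13 in HCT116, and 0.44 and 0.26 for CTF1 in the p53-null sets. The larger of each pair was above at least 1 drug response of the same sets in size. The metallothioneins, the histone H1-3 and the small RNA SCARNA17 belong to families of near-identical copies, which makes their values uncertain.

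**Figure D2:**
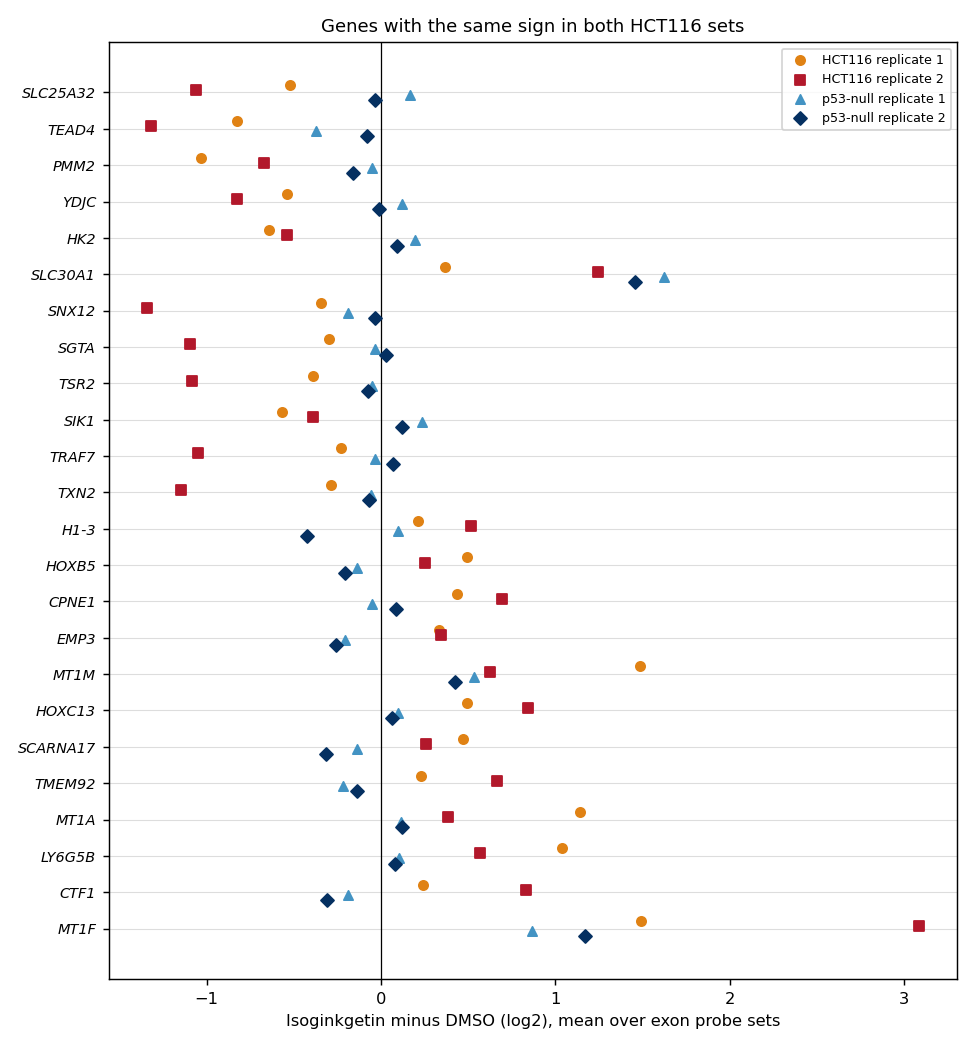
Isoginkgetin minus DMSO (log2, horizontal) in each of the 4 sets for the 12 genes with the largest higher and the 12 with the largest lower difference among separated genes with matching HCT116 signs. For HK2 the HCT116 points are at -0.64 and -0.54 and the p53-null points at 0.20 and 0.09, while for MT1F all points are above 0.

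Metallothioneins bind zinc and copper, and zinc acting through the transcription factor MTF1 raises them together with the zinc exporter SLC30A1. Of 16 genes of this group, both p53-null responses lay below both HCT116 responses in 5 and above in 3 (background 22.3% and 21.5%), with a median difference of -0.12 where that of all genes was -0.0024. The 5 were MT1F, MT1A, MT1M, MT1H and MT1L. MT1A had responses of 1.14 and 0.39 in HCT116 against 0.11 and 0.12, and MT1M 1.49 and 0.62 against 0.53 and 0.42. Their differences were -0.65 and -0.58 with all sets, and -0.27 and -0.14 against HCT116 replicate 2 alone. Those of MT1F and MT1H were larger against replicate 2, at -2.065 and -0.55, than with all sets, at -1.27 and -0.38. SLC30A1 differed the other way. Its level went from 11.79 to 12.16 and from 9.32 to 10.57 in HCT116 and from 7.52 to 9.15 and from 8.00 to 9.46 in the p53-null sets. It was higher with the drug in every set, and its difference was 0.73 ± 0.30 (SE, n = 2). Against HCT116 replicate 2 alone the difference of SLC30A1 was 0.29. The starting level was highest where the response was smallest. MT1X had 0.76 and 1.78 in HCT116 against 1.28 and 1.24, and MT2A 0.73 and 0.67 against 0.69 and 0.43, so that both overlapped between the lines. The importer SLC39A10 had negative responses of similar size throughout, at -0.75 and -0.69 against -0.70 and -0.92.

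The promoters of a zinc-responsive pair whose differences had opposite signs are shown with the metal response element in capitals. The motif searched was TGCACNC or TGCGCNC on either strand, from 250 bases before to 50 after the RefSeq start site (GRCh38.p14). It was present in 6 of the 9 promoters of the group that were in the table (66.7%) and in 35.3% of those of the genes tested.
SLC30A1 promoter, chr1:211579112-211579411, minus strand: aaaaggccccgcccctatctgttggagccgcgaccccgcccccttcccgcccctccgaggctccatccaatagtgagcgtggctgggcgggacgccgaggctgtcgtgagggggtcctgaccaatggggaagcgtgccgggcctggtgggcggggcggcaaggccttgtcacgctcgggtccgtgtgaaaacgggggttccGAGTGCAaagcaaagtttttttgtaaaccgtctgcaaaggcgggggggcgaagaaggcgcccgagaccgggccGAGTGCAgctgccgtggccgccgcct
MT1H promoter, chr16:56669564-56669863, plus strand: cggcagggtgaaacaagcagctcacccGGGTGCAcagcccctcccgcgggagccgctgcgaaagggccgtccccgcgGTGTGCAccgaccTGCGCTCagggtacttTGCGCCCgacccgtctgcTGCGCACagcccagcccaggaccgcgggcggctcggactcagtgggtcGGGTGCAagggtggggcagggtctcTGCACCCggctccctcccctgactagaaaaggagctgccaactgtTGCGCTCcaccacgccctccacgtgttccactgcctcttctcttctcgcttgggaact
The SLC30A1 window held 2 matches and the MT1H window 8. MT1H had responses of 0.60 and 0.94 in HCT116 and of 0.44 and 0.35 in the p53-null sets.

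Ribosome biogenesis was the gene group with the most members separated in 1 direction. It covers the RNA polymerase I machinery and the factors that process ribosomal RNA, which MYC activates in many cells. Both p53-null responses lay above both HCT116 responses in 19 of 25 genes (76.0%, background 21.5%) and below in 1, UTP4. The median difference was 0.27, and the group's median response was -0.12 and -0.23 in HCT116 and 0.01 and 0.03 in the p53-null sets. None of the 25 passed the limma test with all sets. The gene groups were chosen with earlier results of these data known, so their shares are descriptions. Median DMSO levels of this group were 10.44 to 11.25 in the 4 sets, and those of all genes 5.12 to 5.95. The background thus covers many genes of low level, and a share over genes of like level is not given. DDX21, an RNA helicase of the nucleolus, had -0.11 and -0.18 against 0.12 and 0.17. The polymerase I subunit POLR1B had -0.12 and -0.24 against 0.21 and 0.17, and its initiation factor RRN3 -0.26 and -0.28 against 0.05 and 0.01. TSR2, which escorts a ribosomal protein to the assembling subunit, had -0.39 and -1.09 against -0.05 and -0.07. MYC itself had -0.27 and -0.20 in HCT116 and 0.42 and 0.16 in the p53-null sets.

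The E-box CACGTG, which MYC and related factors bind, was found in 10 of 21 promoters of this group (47.6%) and in 8.77% of those of all genes tested. Windows of 2 members with large differences, 0.67 for TSR2 and 0.49 for NOP14, are shown with the E-box in capitals.
TSR2 promoter, chrX:54440154-54440453, plus strand: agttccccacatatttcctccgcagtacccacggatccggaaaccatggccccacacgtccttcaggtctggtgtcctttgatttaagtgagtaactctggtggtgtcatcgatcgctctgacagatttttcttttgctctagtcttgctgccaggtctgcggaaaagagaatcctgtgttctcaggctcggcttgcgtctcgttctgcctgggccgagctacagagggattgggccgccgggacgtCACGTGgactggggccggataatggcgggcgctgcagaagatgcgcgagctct
NOP14 promoter, chr4:2963357-2963656, minus strand: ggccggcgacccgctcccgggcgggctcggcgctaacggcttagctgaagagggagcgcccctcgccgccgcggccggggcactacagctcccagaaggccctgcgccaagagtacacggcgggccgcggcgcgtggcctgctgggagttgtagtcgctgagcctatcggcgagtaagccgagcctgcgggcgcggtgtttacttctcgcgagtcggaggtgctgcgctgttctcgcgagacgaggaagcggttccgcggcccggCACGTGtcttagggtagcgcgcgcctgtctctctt
The E-box began at -3 relative to the start in TSR2 and at 15 in NOP14, and NOP14 itself belonged to the genes moved only in replicate 2. UTP4, the member with the opposite sign, also held it.

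Genes of the unfolded protein response of the endoplasmic reticulum were separated upwards in 13 of 25 cases (52.0%, background 21.5%) and downwards in 1. The median difference was 0.19. The chaperone HSPA5, the main sensor-binding chaperone of the compartment, had positive responses of 0.28 and 0.41 in HCT116 and of 0.56 and 0.54 in the p53-null sets. HYOU1, its nucleotide exchange factor, had 0.13 and 0.08 against 0.47 and 0.54, the smallest p of the group. PDIA4, a disulfide isomerase, had 0.14 and -0.04 against 0.28 and 0.35. XBP1, a transcription factor of the response, overlapped between the lines, with 0.15 and 1.23 against 0.93 and 0.63.

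DNA replication genes were separated upwards in 13 of 33 cases (39.4%) and downwards in 1, with a median difference of 0.09. GINS2, a subunit of the replicative helicase, had -0.24 and -0.53 in HCT116 and -0.05 and -0.01 in the p53-null sets. CDC6, which loads that helicase, had -0.14 and 0.09 against 0.22 and 0.33. Of the core spliceosome 9 of 32 genes were separated upwards and 6 downwards, near the background. Its tri-snRNP component PRPF4 had -0.15 and -0.27 against 0.46 and 0.37, a difference of 0.62 ± 0.075 (SE, n = 2). The step from DMSO to isoginkgetin ran in opposite directions in the lines for this gene.

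The known p53 targets showed little difference in response. Their median response was -0.05 and -0.02 in HCT116 and -0.02 and -0.03 in the p53-null sets, and 8 of 31 were separated upwards and 7 downwards, close to the background shares. CDKN1A had responses of -0.08 and 0.08 against -0.06 and -0.22, and MDM2 of -0.02 and 0.15 against 0.18 and 0.10, so that both overlapped between the lines. The DNA repair factor XPC had -0.28 and -0.26 in HCT116 and 0.14 and 0.15 in the p53-null sets, a difference of 0.42. AEN, an apoptotic nuclease, had -0.35 and -0.87 against -0.12 and 0.04. Neither passed the limma test with all sets (adjusted p 0.54 for both).

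**Figure D3:**
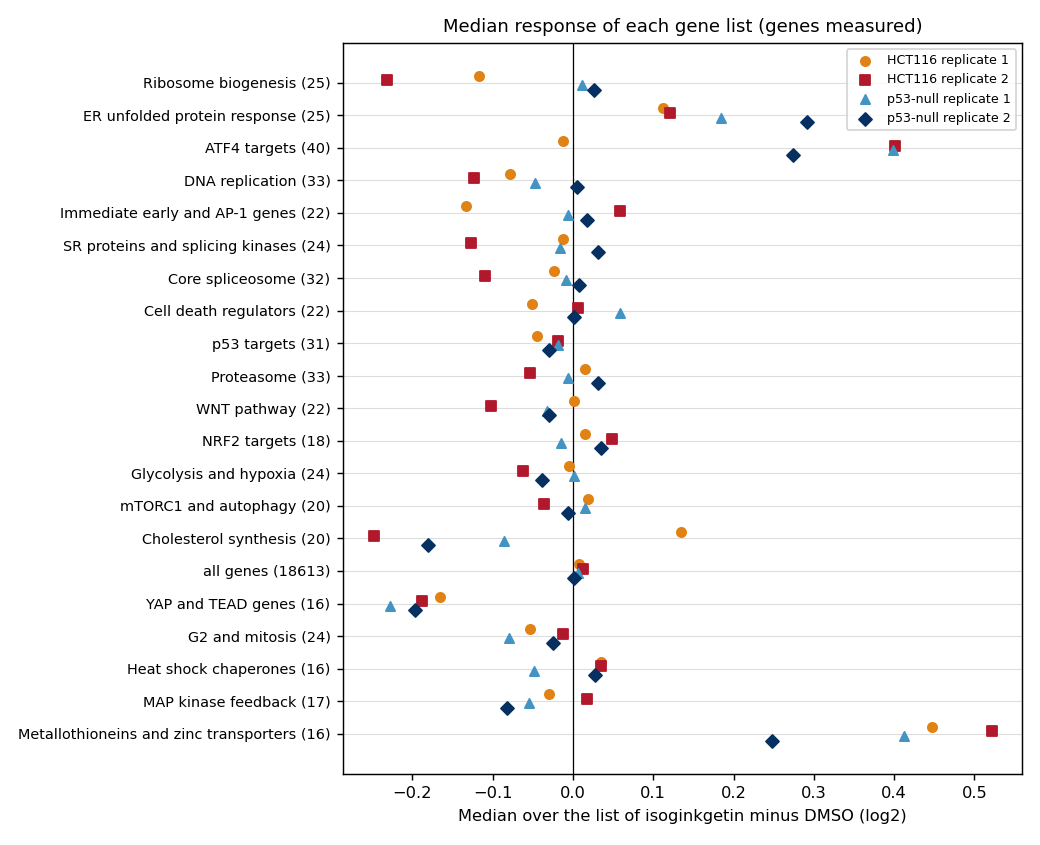
Median isoginkgetin minus DMSO (log2, horizontal) over the measured genes of each list, in each of the 4 sets. Numbers of genes are in parentheses. For ribosome biogenesis the HCT116 sets are at -0.12 and -0.23 and the p53-null sets at 0.01 and 0.03, and for ATF4 targets HCT116 replicate 1 is at -0.01 and the other sets between 0.27 and 0.40.

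Against HCT116 replicate 2 alone, the median difference was 0.29 for ribosome biogenesis, 0.11 for the unfolded protein response, 0.12 for DNA replication and -0.13 for metallothioneins and zinc transporters. These medians kept the sign they had with all sets. Others did not keep it or grew. The median of 20 cholesterol synthesis genes was 0.0087 with all sets and 0.23 against replicate 2, where 15 lay above it in both p53-null sets and 3 below. Of all genes, 38.2% lay above replicate 2 in both p53-null sets and 40.1% below. With all sets, 1 of the 20 was separated upwards (5.0%, background 21.5%) and 3 downwards (15.0%, background 22.3%). That of 22 immediate early genes was 0.09 with all sets and -0.08 against replicate 2, and that of the p53 targets 0.03 and -0.0043. For 18 targets of the transcription factor NRF2 it was 0.0223 and -0.0523, and for 20 genes of mTORC1 and autophagy 0.0154 and -0.0168. Glycolysis and hypoxia genes had 0.019 and 0.11, and proteasome genes 0.0336 and 0.10.

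Further lists are given beside the background shares of 21.5% above and 22.3% below. Of 17 MAP kinase feedback genes, 6 were above and 6 below (35.3% each), and of 24 SR proteins and splicing kinases 9 were above (37.5%) and 3 below (12.5%). Glycolysis and hypoxia had 8 of 24 above (33.3%) and 5 below (20.8%), and immediate early genes 5 of 22 (22.7%) and 2 (9.09%). Of 33 proteasome genes 5 were above (15.2%) and 0 below, and of 16 heat shock chaperones 1 was above (6.25%) and 5 below (31.2%). The glucose transporter SLC2A1 had -0.27 and -0.06 against 0.61 and 0.37, while its relative SLC2A3 had 0.41 and 0.02 against -0.39 and -0.59. The DMSO level of SLC2A3 was 9.86 in HCT116 replicate 1, 4.18 in replicate 2, and 6.88 and 6.76 in the p53-null sets. TCF7L2, the nuclear effector of WNT signalling, had -0.04 and -0.09 against -0.47 and -0.50. The phosphatase DUSP4 had -0.01 and 0.65 against 1.35 and 0.92, with a DMSO level of 3.86 in HCT116 replicate 1 and of 9.48 and 9.61 in the p53-null sets.

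Targets of ATF4 set HCT116 replicate 1 against the other 3 sets. The median response of 40 genes was -0.01 in that set, 0.40 in HCT116 replicate 2, and 0.40 and 0.27 in the p53-null sets. With all sets, 5 were separated upwards (12.5%, background 21.5%) and 2 downwards (5.0%, background 22.3%), with a median difference of 0.12. Both shares were below the background. Against replicate 2 alone the median was -0.16, and 29 of 40 genes lay below it in both p53-null sets and 6 above it, where 40.1% and 38.2% of all genes did. The sign of the median thus depended on HCT116 replicate 1. The DMSO level of that set was higher by at least 2 log2 than in every other set for 16 of the 40 genes (background 5.67%).

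CHAC1, an enzyme that degrades glutathione, went from 5.09 to 9.54 in HCT116 replicate 2 and from 4.99 to 8.66 and from 5.34 to 7.55 in the p53-null sets. In HCT116 replicate 1 it started at 9.93 and was at 9.80 with the drug. The difference over all sets was 0.78 ± 1.57 (SE, n = 2), and against replicate 2 alone it was -1.52, with a limma adjusted p of 0.24. ASNS, which makes asparagine, had responses of -0.10, 1.49, 1.22 and 0.82 in HCT116 replicates 1 and 2 and the p53-null sets. DDIT3, a pro-death transcription factor, was positive throughout, at 0.80 and 1.67 against 0.76 and 0.70. NUPR1, a stress-induced chromatin protein, had 0.19 and 1.08 against -0.07 and -0.10.

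CHAC1 and ASNS are shown with the composite ATF4 site in capitals. The motif searched was TGATGNAAN on either strand. It was present in 7 of 33 promoters of this list (21.2%) and in 2.42% of those of all genes tested.
CHAC1 promoter, chr15:40953221-40953520, plus strand: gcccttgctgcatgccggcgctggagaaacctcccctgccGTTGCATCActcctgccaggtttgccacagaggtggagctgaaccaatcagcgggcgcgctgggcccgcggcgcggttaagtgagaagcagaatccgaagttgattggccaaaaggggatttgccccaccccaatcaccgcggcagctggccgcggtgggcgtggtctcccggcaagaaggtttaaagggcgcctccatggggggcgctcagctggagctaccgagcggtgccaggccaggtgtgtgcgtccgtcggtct
ASNS promoter, chr7:97872359-97872658, minus strand: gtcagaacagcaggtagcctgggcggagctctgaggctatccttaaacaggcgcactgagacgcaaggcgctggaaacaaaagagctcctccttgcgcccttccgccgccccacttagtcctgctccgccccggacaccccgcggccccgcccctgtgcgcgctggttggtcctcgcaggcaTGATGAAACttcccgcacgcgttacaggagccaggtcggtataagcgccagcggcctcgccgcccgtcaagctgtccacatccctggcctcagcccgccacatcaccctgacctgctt
Each window held 1 match. The site gave no order of the differences, since CARS1 with a match was at 0.41 and FGF21 with a match was at -0.0025.

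**Figure D4:**
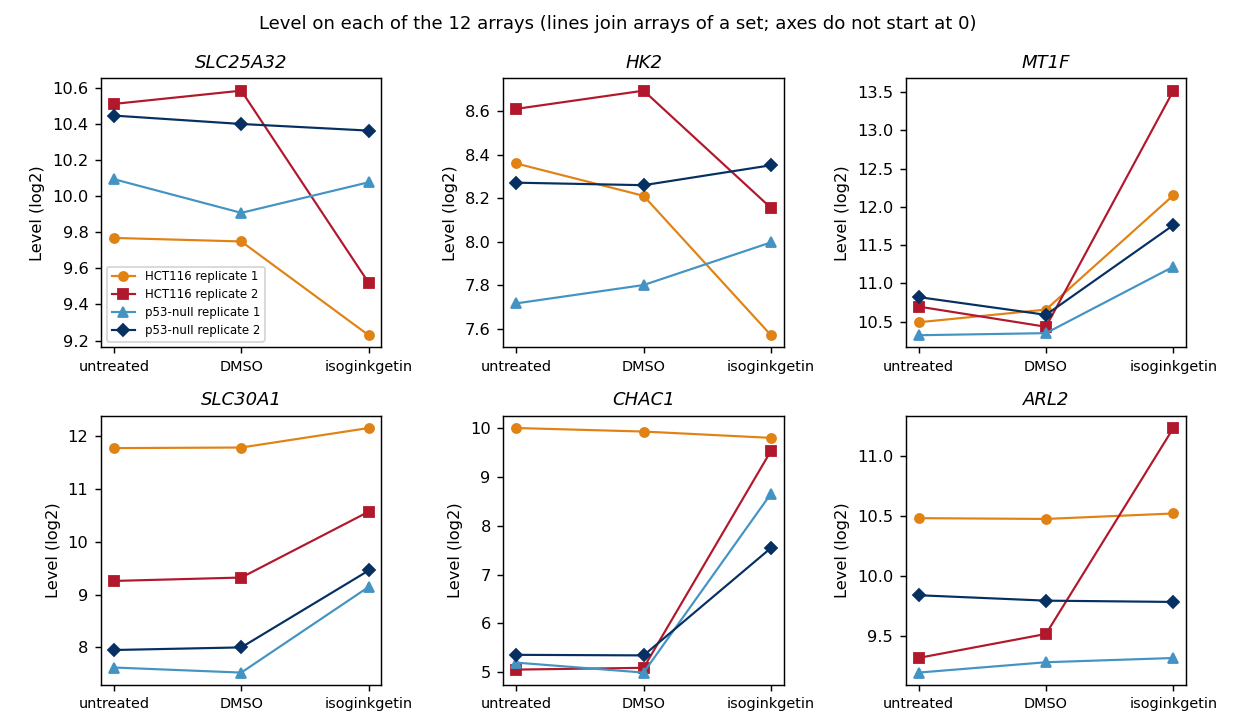
Level (log2, vertical) on each of the 12 arrays for 6 genes. Each line joins the untreated, DMSO and isoginkgetin arrays of a set, and the axes do not start at 0. HK2 goes down in both HCT116 sets and up in both p53-null sets, CHAC1 is near 10 on all arrays of HCT116 replicate 1, and ARL2 moves only in HCT116 replicate 2.

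The 390 genes that moved only in HCT116 replicate 2 were a separate group. Of these, 368 had a mean level of at least 5 log2. Positive responses were found in 152, and both p53-null sets moved the same way by at least 0.2 log2 in 35 of them and by less than 0.2 in 82. Negative responses were found in 216, of which 33 moved with both p53-null sets and 150 had both p53-null sets under 0.2. For the first kind HCT116 replicate 1 was the set that differed, and for the second HCT116 replicate 2 was. DMSO levels of the HCT116 sets were within 2 log2 of each other in 114 of the 152 and in 185 of the 216. In these 368 genes 25.3% of exon probe sets were repeated exactly between DMSO and isoginkgetin in replicate 1 and 9.65% in replicate 2, and 22.5% and 21.0% over all genes of that level. The part of such repeats in the class was not tested.

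Genes that replicate 2 shared with the p53-null line included stress genes. SLC7A11, the cystine importer, had responses of -0.01, 2.58, 2.28 and 1.60 in HCT116 replicates 1 and 2 and p53-null replicates 1 and 2. DDIT4, an inhibitor of the growth kinase complex mTORC1, had 0.00, 2.90, 2.78 and 1.58. The nuclear receptor NR4A2 had 0.17, 1.88, 2.15 and 1.51, with a DMSO level of 3.81 in HCT116 replicate 1 and of 8.46 to 10.1 in the others. In the other direction, the transcription factor SOX4 had 0.15, -1.12, -0.88 and -1.05. HCT116 replicate 1 was near 0 in each, and the other 3 sets moved together.

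Other genes of this class moved in HCT116 replicate 2 and little in the remaining sets. ARL2, a small GTPase of tubulin folding and mitochondria, went from 9.52 to 11.23 in that set, and from 10.48 to 10.52, from 9.28 to 9.32 and from 9.79 to 9.78 in HCT116 replicate 1 and the p53-null sets. ATP5F1D, a subunit of mitochondrial ATP synthase, went from 11.03 to 12.82 in that set and had responses of -0.08, -0.30 and 0.00 in the others. BANF1, which tethers chromatin to the nuclear envelope, had 1.14 there and between -0.15 and -0.08 elsewhere. CHMP1A, of the membrane-severing ESCRT machinery, had -1.56 there and between -0.23 and -0.13 elsewhere. The small nucleolar RNA SNORA38 had -2.83 there, and in p53-null replicate 2 all 7 of its probe sets were repeated exactly. It belongs to the small RNAs of near-identical copies, and its vehicle response in HCT116 replicate 2 was already 0.80.

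**Figure D5:**
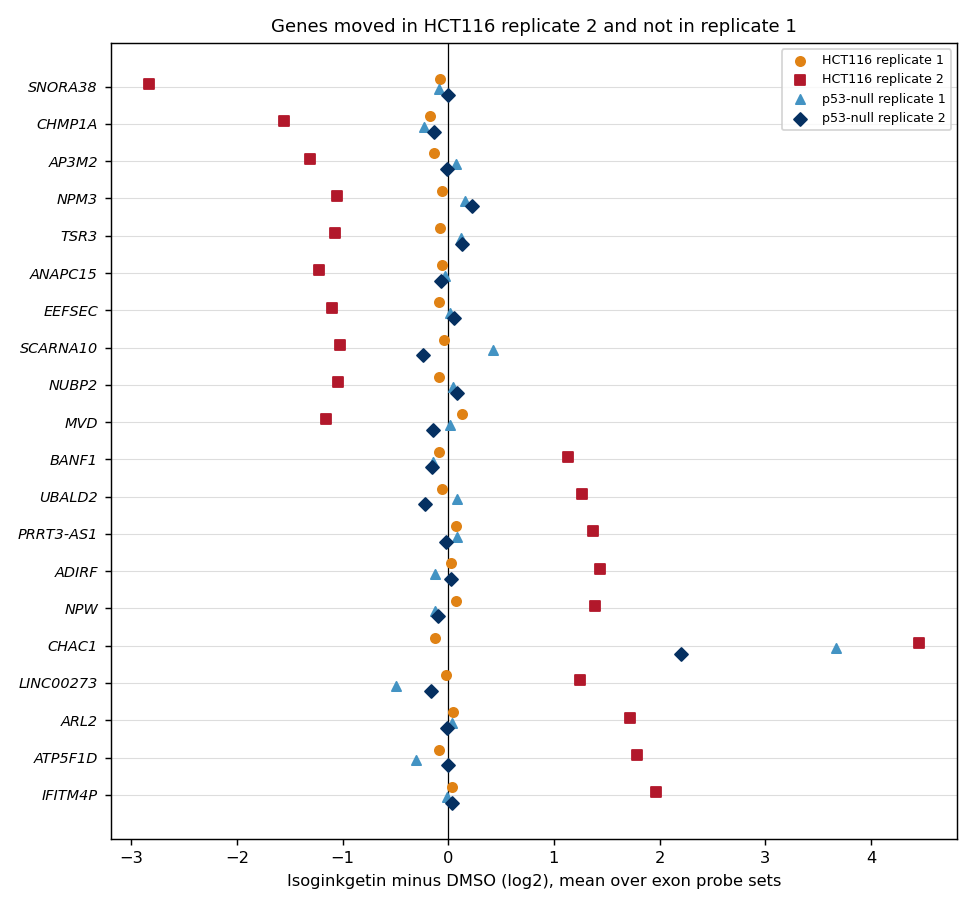
Isoginkgetin minus DMSO (log2, horizontal) in each of the 4 sets for 20 genes that moved in HCT116 replicate 2 and not in replicate 1, ordered by the p53-null mean minus replicate 2. ARL2 is at 1.72 in replicate 2 and between -0.01 and 0.05 in the other sets, while CHAC1 has p53-null points at 3.67 and 2.21.

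Without HCT116 replicate 1, 628 genes (3.37%) passed the limma test on exon means, 402 higher (2.16%) and 226 lower (1.21%) in the p53-null line. This count did not hold across readouts of the same arrays. It was 7 of 16732 genes (0.0418%) on junction means, 0 with the median over exon probe sets and 0 without the set as a block. The fit had 1 residual degree of freedom, with the spread of the remaining HCT116 set taken from the p53-null sets. It made false calls even on simulated data, in which that equal spread held by design. Their number in the real data cannot be read from the simulation. Most genes that passed on exon means had the same sign on junction means, where 67.8% of all genes did. They had been selected for exon differences large against their error, which all genes had not, and both readouts share the same arrays. The higher share of equal signs therefore gives no support to the calls. Only 3 passed on both readouts, ADIRF, ATP5F1D and BANF1, with junction differences of -2.36, -2.40 and -2.63, and all 3 were genes moved only in replicate 2.

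By class, the 628 comprised 138 genes with matching HCT116 signs, 247 moved only in replicate 2, 31 of opposite signs and 212 with smaller responses. Among all 628, 442 had HCT116 responses of the same sign. Against 2.16% higher and 1.21% lower over all genes, the calls higher numbered 6 of 25 in ribosome biogenesis and 4 of 33 in DNA replication, with 0 lower in either. The 25 unfolded protein response genes had 1 in each direction. None of 40 ATF4 targets was called higher and 3 lower, and none of 16 metallothioneins and zinc transporters higher and 4 lower. Without HCT116 replicate 2 the count was 42 (0.226%), 16 higher (0.086%) and 26 lower (0.14%).

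Gene length, which the classes did not use, differed between them. The median over the 10173 genes with a level of at least 5 was 31.0 kb. Genes with negative responses in both HCT116 sets had a median of 48.0 kb and those with positive responses 14.9 kb. Their median numbers of exon probe sets were 20 and 10, against 19 over all genes of that level. Those also separated by at least 0.5 log2 were shorter. The median was 26.6 kb for 57 with negative HCT116 responses and 3.75 kb for 14 with positive ones. These 57 and 14 genes also had fewer exon probe sets, with medians of 13 and 5. The part of probe set number in their selection was not tested. Genes moved only in replicate 2 had medians of 26.1 kb for negative and 9.89 kb for positive responses. These medians are descriptions without a test.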

How the data were processed

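RNA of 12 cultures was hybridised to the Human Transcriptome Array 2.0. Per the labels and the design text, the authors made the deposited log2 values with Transcriptome Analysis Console 4.0 at its default settings and tested groups by one-way analysis of variance with Benjamini-Hochberg correction; neither the summarisation method nor the genome build is stated there. The deposited log2 values were used without further scaling. Of 573909 exon probe sets, 385548 carried 1 symbol and 381400 entered the means of 18613 genes, after 2474 symbols were updated through RefSeq. Junction means covered 16732 genes. Many deposited values were exactly equal within a set, and no label or header states why.

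Responses (isoginkgetin minus DMSO within a set) were compared between the lines with limma 3.58.1 in R 4.3.3 (2 residual degrees of freedom), and genes were called at a Benjamini-Hochberg adjusted p under 0.05. Replicates were independent experiments, per the design text. Deviations correlated at 0.903 to 0.997 within a line and number and at 0.0678 to 0.107 between lines, and the set was taken as the block. Because HCT116 replicate 1 stood apart, the low values between lines cannot decide whether replicate numbers paired the lines. The rule for named genes took the 12 largest differences each way among separated genes with matching HCT116 signs, the 10 largest each way among genes moved only in replicate 2, the called genes of smallest p, up to 4 genes of smallest p per list, and a few fixed genes. The figures show the first 2 sets of genes in full and the text describes some of them; other genes were chosen after their values were seen. The members, lists and 20 gene groups were chosen with earlier results of these data known. The fit was tested on simulated data. Alternatives were the scaling, the gene summary, filters, the block and leaving out sets. Promoter sequences are from RefSeq (GRCh38.p14). The targeted gene is not reported here.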

Additional observations from a re-analysis of the deposited data

Results flagged for a closer look

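In 44 of 127 named genes both HCT116 responses had one sign and both p53-null responses the opposite sign, as they had in 2428 of all genes (13.0%). Most named genes had been chosen for the size, the separation or the small p of their difference. The log2 differences, p53-null minus HCT116, of at least 0.5 in size and above 0 were NPM3 0.75, HK2 0.73, TSR3 0.70, SIK1 0.66, SLC2A1 0.66, EEFSEC 0.63, NUBP2 0.63, PRPF4 0.62 and MYC 0.52. Those below 0 were NPW -0.84, CTF1 -0.79, NUPR1 -0.72, SLC2A3 -0.70, IFITM2 -0.64, TMEM92 -0.63, SCARNA17 -0.59, EMP3 -0.57 and HOXB5 -0.54.

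Smaller differences above 0 were XPC 0.42, POLR1B 0.37, HSPA1A 0.36, UTP15 0.35, MCM6 0.33, RRN3 0.30, DDX21 0.29, SRSF6 0.29, DUSP1 0.27, CDC7 0.25, SF3A3 0.25, MCL1 0.24, BUD31 0.21, TIGAR 0.21, CLK3 0.20, BECN1 0.17, MTF1 0.15, PSMC5 0.15 and AKR1B10 0.13. Smaller differences below 0 were SF3A2 -0.39, HSPB1 -0.22, CENPA -0.20, CDC25C -0.19, AHSA1 -0.17, ME1 -0.13 and SREBF2 -0.13. None of these genes passed the limma test with all sets, with adjusted p from 0.54 to 0.634. In NPM3, TSR3, EEFSEC, NUBP2, NPW and IFITM2 the response of HCT116 replicate 1 was within 0.09 of 0. Others were near 0 as well, among them SF3A3 at -0.02, CLK3 at -0.03, BECN1 at -0.05 and CENPA at 0.02 in replicate 1. In replicate 2 SLC2A3 was at 0.02 and SLC2A1 at -0.06. The SD of the vehicle response over genes was 0.067 to 0.103 in the 4 sets, so the sign of such small responses is uncertain. DMSO against untreated cells gave 0.44 and 0.26 for CTF1 in the p53-null sets. It gave 0.37 and 0.20 for NUPR1, -0.24 and -0.22 for NPM3, -0.33 and -0.18 for TSR3, and -0.11 and -0.13 for CDC7. In these 4 genes, among others, it was opposite in sign to the p53-null drug response and at least as large. Against untreated cells, isoginkgetin moved each of them in the same direction in all 4 sets. Their opposite signs thus depended on DMSO as the control.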

How the results depend on the processing

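With all sets the count was 0 under the main setting, 0 with no replicate block and 0 with the replicate block across lines. It was 1 (TVP23B, chosen after its value was seen) in a plain 2-way analysis of variance, and from 0 to 628 when 1 set was left out. The 628 genes without HCT116 replicate 1 became 0 with no replicate block, 0 with the median over exon probe sets, 7 on junction means (added after seeing the data), 395 after quantile scaling, 1103 with all arrays and the set as block, 1402 for genes with a level of at least 5, 1232 with at least 8 exon probe sets and 1649 at an adjusted p under 0.1. Gene-level values gave 8335, where 78.5% of gene-level values had a response of 0 in both p53-null sets, and this count is not interpreted. The fits repeated on these 3 sets were added after seeing the data.

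Of 1973 alternative values of named genes, 1848 kept their direction and call, 17 gene-level values were exactly 0, 52 lost a call, 35 gained one and 21 changed sign. Settings that changed only the variance model, the block or the gene filter return the same difference by construction. Its direction could not change there, and these values do not measure robustness. With all sets no gene was called, so a call could be lost only in the fits without HCT116 replicate 1. Leaving out a HCT116 set moved ATF3 from -0.091 to 0.3894, ATF4 from -0.21 to 0.7354 and MDM2 from -0.012 to 0.1643, negative without replicate 1. Over all genes 3231 (17.4%) changed sign without HCT116 replicate 1. Among genes moved only in replicate 2, CHAC1 went from 0.78 to -1.52, ASNS from 0.33 to -0.47, SLC7A11 from 0.66 to -0.64, DDIT4 from 0.73 to -0.72, NR4A2 from 0.81 to -0.0486, XBP1 from 0.09 to -0.45 and SOX4 from -0.48 to 0.16. With medians they were BCL2 -0.13, CDKN1A 0.0152, IER5 -0.0505, SRSF6 -0.0716 and STARD4 0.0566. Gene-level values gave ATF3 -0.0058 and CDKN1A 0.0339, untreated controls CCNB2 -0.0191 and DNAJB4 0.0053, and leaving out a p53-null set gave SLC39A10 from -0.201 to 0.0224, positive without replicate 2. Junction means gave AHSA1 0.0273, AKR1B10 -0.17, ATF3 -0.0699, BID -0.0301, CENPA 0.14, HSPA1A -0.12, PSMA3 -0.0459 and SC5D 0.25. The causes were not tested. In the simulation with all 4 sets, 3 of 100 differences of 0.5 log2 were recovered. It gave all sets of a gene the same spread, so this share need not hold for the data. The part of repeated values in what could be detected was not tested.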
